A study of Mus musculus with 21 samples.

Results

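Krüppel-like transcription factors, ADAMTS metalloproteinases, their substrate versican and 3 further genes linked to signalling by the kinase MEKK3 in endothelium were followed. The RNA was enriched for astrocytes and came from brains of mice in which Pdcd10 deletion is directed mainly to brain endothelium. The 10 genes were Klf2, Klf4, Klf6, Adamts1, Adamts4, Adamts5, Vcan, Rhob, Nos3 and Thbs1. They were listed by symbol, with earlier results of these data known. Each had 1 gene ID among the 55416 in the count table, and all 10 passed the filter on low counts that left 19854 genes to test. Loss of Pdcd10, also called CCM3, in brain endothelium is a model of cerebral cavernous malformation, a disease of leaking, enlarged capillaries.

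The knockouts were Slco1c1-iCreERT2;Pdcd10fl/fl;Aldh1l1-EGFP/Rpl10a mice, with 7 libraries in hypoxia and 4 in normoxia. The controls, called Flox in the labels, were Pdcd10fl/fl; Aldh1l1-EGFP/Rpl10a mice, with 4 libraries in hypoxia (replicates 3 to 6; replicates 1 and 2 were not analysed here) and 4 in normoxia. All 4 groups thus carried the floxed alleles and the reporter, which puts a tag on ribosomes of cells that use the Aldh1l1 promoter, mainly astrocytes. The Slco1c1 promoter limits the tamoxifen-inducible Cre mainly to brain endothelium. Hypoxia was 12% oxygen for 7 days and normoxia 21% oxygen, and brains were taken at postnatal day 57. The knockouts had received 50 micrograms of 4-hydroxytamoxifen on postnatal day 1. The study's text does not say whether the controls of these libraries were injected, and it also names uninjected carriers of Cre as controls without saying which libraries they gave, so genotype and injection cannot be told apart. It speaks both of ribosome pull-down from astrocytes and of RNA from whole homogenised brain. Nothing in the labels ties each library to an animal of its own, and the p-values therefore cover only variation among libraries, which may be technical.

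Totals were 45399320 to 65261791 counts per library. Pdcd10 itself separated the genotypes, with all knockout libraries below all control libraries (log2 fold change -1.5 ± 0.12 in hypoxia and -1.32 ± 0.14 in normoxia, edgeR adjusted p = 1.02e-06 and 4.08e-05). That left 0.353 and 0.402 of the control level in this RNA, and which cells lost Pdcd10 was not tested. The 7 astrocyte markers summed to 25500 to 39800 CPM (counts relative to library size, scaled by TMM) in hypoxic knockouts, 44100 to 51000 in hypoxic controls, 35000 to 49200 in normoxic knockouts and 46100 to 50600 in normoxic controls. The 9 endothelial markers summed to 19 to 34.9, 15.8 to 33, 29.8 to 112 and 12.2 to 28.5 CPM in the same 4 groups, and none of them was at 0 throughout a group. Knockout hypoxia libraries 1, 2 and 3 stood apart, with 391, 427 and 640 CPM of summed mitochondrially encoded RNA against at most 58 CPM in knockout hypoxia libraries 4 to 7, and calls that were lost without them are given both ways. Ddx3y, a Y-linked gene, was low in 5 libraries (knockout hypoxia 6 and 7, control hypoxia 6, control normoxia 3 and 4), although all samples carry the tag male. In RNA of mixed tissue, fewer cells of a type and less RNA per cell cannot be told apart.

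In endothelial cells the CCM proteins, Pdcd10 among them, hold back MEKK3, a kinase that acts through MEK5 and ERK5 on MEF2 transcription factors. When the complex is lost in mouse endothelium, this pathway is known to raise the transcription factors Klf2 and Klf4 and the versican-cleaving proteases Adamts4 and Adamts5. Klf2 and Klf4 are otherwise induced by blood flow, and they raise Nos3, the endothelial nitric oxide synthase, and lower Thbs1, an inhibitor of vessel growth. Klf6, Rhob and Adamts1 are also early response genes in many cell types.

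Promoter sequences, 250 bases before to 50 bases after the annotated start, were in the RefSeq table of build GRCm38.p6 for 6 of the 10 genes (Klf2, Klf4, Klf6, Adamts1, Vcan and Rhob). The 4 printed here belong to genes that differed between knockouts and controls. They are given 5′ to 3′ on the strand of the gene, and capitals mark a match to the MEF2 motif, searched by its name, or to CACCC, the core of sites that KLF proteins bind, read on either strand (as GGGTG where it lies on the other).
Klf2 promoter, chr8:72318812-72319111, plus strand: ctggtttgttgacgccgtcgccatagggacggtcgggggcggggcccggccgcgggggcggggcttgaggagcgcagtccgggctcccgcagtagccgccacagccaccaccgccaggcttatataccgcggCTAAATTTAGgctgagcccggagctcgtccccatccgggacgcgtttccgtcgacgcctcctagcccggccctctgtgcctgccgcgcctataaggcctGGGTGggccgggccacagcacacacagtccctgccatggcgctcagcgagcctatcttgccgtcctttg
Klf6 promoter, chr13:5861239-5861538, plus strand: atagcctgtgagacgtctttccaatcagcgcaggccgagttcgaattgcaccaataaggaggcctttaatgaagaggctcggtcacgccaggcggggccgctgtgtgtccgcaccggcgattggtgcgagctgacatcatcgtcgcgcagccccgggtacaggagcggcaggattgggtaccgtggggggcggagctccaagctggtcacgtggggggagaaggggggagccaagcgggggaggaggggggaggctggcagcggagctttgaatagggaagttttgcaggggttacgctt
Adamts1 promoter, chr16:85803064-85803363, minus strand: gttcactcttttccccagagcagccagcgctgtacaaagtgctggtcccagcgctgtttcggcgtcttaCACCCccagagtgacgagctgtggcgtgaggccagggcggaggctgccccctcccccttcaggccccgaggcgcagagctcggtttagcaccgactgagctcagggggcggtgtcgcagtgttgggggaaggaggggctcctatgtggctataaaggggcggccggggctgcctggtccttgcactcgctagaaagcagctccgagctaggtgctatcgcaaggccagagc
Rhob promoter, chr12:8499960-8500259, minus strand: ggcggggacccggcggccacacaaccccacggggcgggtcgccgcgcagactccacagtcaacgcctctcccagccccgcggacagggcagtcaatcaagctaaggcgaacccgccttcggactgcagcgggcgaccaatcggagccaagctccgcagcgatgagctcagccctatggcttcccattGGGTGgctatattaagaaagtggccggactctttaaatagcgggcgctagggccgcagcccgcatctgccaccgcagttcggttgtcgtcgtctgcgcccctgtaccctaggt
A MEF2 match was present in 1 of the 6 promoters, that of Klf2, where it begins at position -118, against 3.19% of all 32851 promoters of that length in the table. CACCC was present in 4 of the 6 (at -19 in Klf2, -181 in Adamts1 and -63 in Rhob, and 4 times in Vcan), against 57.5% of all promoters. ACGTG, the core bound by hypoxia-inducible factors, was found in the Klf4 and Klf6 windows, 2 of 6 against 19.6%. The CArG box, by its name, was in 0 of 6 (1.63% of all), TGANTCA, the AP-1 motif, in 0 of 6 (7.81%) and TGACGTCA, the cyclic AMP motif, in 0 of 6 (1.79%). Both strands were searched, a match that reads the same on both counts once for each, and no 2 of these motifs overlapped in the windows shown. These are descriptions of letters in a window and not of binding.

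On the length-corrected RPKM scale, the 10 genes spanned a wide range of levels. In hypoxic knockouts Rhob led at 309 ± 16.9 RPKM (SD, n = 7), followed by Klf6 at 15.6 ± 0.963, Klf2 at 9.07 ± 1.35, Adamts1 at 6.45 ± 1.39 and Klf4 at 3.51 ± 0.366 RPKM. Adamts4 came next at 1.25 ± 0.504 RPKM, then Nos3 at 0.655 ± 0.133, Thbs1 at 0.469 ± 0.116, Adamts5 at 0.387 ± 0.0867 and Vcan at 0.206 ± 0.0235 RPKM. The library ranges of Klf2 and Adamts1, of Adamts1 and Klf4, and of the neighbours from Adamts4 to Adamts5 overlapped in this order, while the other neighbours were separate. In normoxic controls Rhob was again first at 377 ± 45.9 RPKM (SD, n = 4) and Vcan last at 0.123 ± 0.0156 RPKM, and Nos3 at 0.396 ± 0.0825 RPKM stood below Thbs1 at 0.439 ± 0.131 and Adamts5 at 0.432 ± 0.0262 RPKM, with overlapping ranges. The endothelial nitric oxide synthase and thrombospondin were therefore read at levels far below those of Rhob and the Klf genes.

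The knockout comparison at each oxygen level asks which of these genes differ in astrocyte-enriched RNA when the deletion is directed mainly to endothelium. In hypoxia Klf2, Klf6 and Nos3 rose in knockouts and Rhob fell, so 3 of the 10 genes were called higher, where 10.4% of all 19854 tested genes were, and 1 lower, where 9.37% were (adjusted p under 0.05 over all genes, edgeR). With the replicate number as a block, over the 4 numbers the hypoxic groups share, 4 were called higher (Klf2, Klf6, Nos3 and Adamts1) and 0 lower. Without knockout hypoxia libraries 1 to 3, Klf2 and Klf6 were called higher and Rhob lower, and Nos3 was not called. Of all 19854 genes, 2633 were called with the block and 1697 without those libraries, against 3917 in the main fit. In normoxia Klf6, Adamts1 and Nos3 rose, 3 of 10 against 6.9% of all genes, and 0 of the 10 were called lower against 5.27% of all genes, with 0 lower at an unadjusted p under 0.05 and 0 by DESeq2. The median log2 fold change of the 10 was 0.39 in hypoxia and 0.66 in normoxia, where that of all tested genes was 0.01 and -0.01. The comparisons in hypoxia and in normoxia share no library, and Klf6 and Nos3 were called higher in both. Since the genes were chosen with results of these data known, no test of the list was made.

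**Figure D1:**
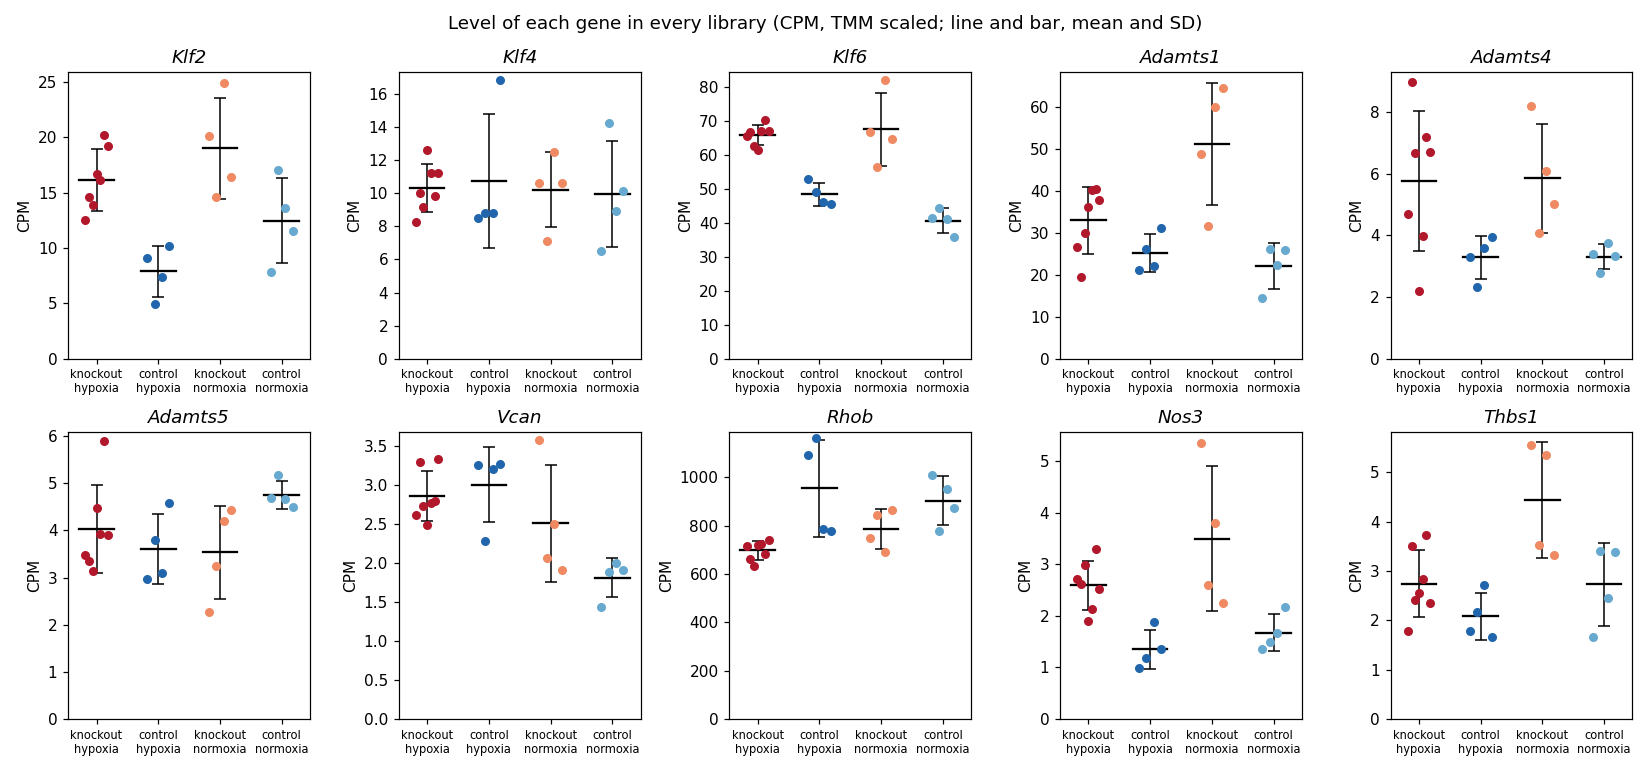
Levels of the 10 genes in every library, in TMM-scaled CPM on a linear axis from 0, with 1 point per library and the mean and SD of each group (knockout hypoxia, n = 7; the other 3 groups, n = 4). All knockouts lie above all controls for Klf6 and Nos3 at both oxygen levels, Klf2 in hypoxia, and Adamts1 and Adamts4 in normoxia. All lie below for Rhob in hypoxia and Adamts5 in normoxia. For Klf4, Vcan and Thbs1 knockouts and controls overlap at both oxygen levels.

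Klf2 (ENSMUSG00000055148), whose promoter holds the MEF2 match shown above, separated the hypoxic groups fully. It had 12.5 CPM at the lowest, 16.1 at the median and 20.2 at the highest in the 7 hypoxic knockout libraries, against 9.13, 4.93, 7.35 and 10.2 CPM in hypoxic control libraries 3 to 6. Every hypoxic knockout lay above every hypoxic control. The log2 fold change was 1.03 ± 0.22 (SE), a fold of 2.05, with edgeR adjusted p = 0.00382. In normoxia Klf2 had 20.1, 14.6, 24.9 and 16.4 CPM in knockouts 1 to 4, against 7.82, 17, 13.6 and 11.5 CPM in controls 1 to 4. These groups overlapped, since control 2 was above knockouts 2 and 4, and the difference of 0.61 ± 0.24 did not pass (adjusted p = 0.0971). Whether the 2 differences differ was tested by the interaction term, 0.42 ± 0.32, which did not pass (adjusted p = 0.662). The call in hypoxia was made in all 27 alternatives, with log2 fold changes of 0.86 to 1.18, and the normoxic difference in 0 of 27.

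Klf6 (ENSMUSG00000000078), the most abundant of the 3 Klf genes and a factor of the injury response, was higher in knockouts at both oxygen levels. Its level was 61.6 CPM at the lowest, 66.8 at the median and 70.2 at the highest in hypoxic knockouts, against 53, 49.2, 46.3 and 45.5 CPM in hypoxic controls 3 to 6. In normoxia it was 66.8, 56.5, 82.2 and 64.8 CPM in knockouts, against 41.5, 44.3, 41.3 and 35.8 CPM in controls. No knockout overlapped a control at either oxygen level. The rise was modest in size, 0.44 ± 0.08 on the log2 scale in hypoxia (1.36-fold, adjusted p = 0.00169) and 0.73 ± 0.09 in normoxia (1.66-fold, adjusted p = 0.00018), and both were called in all 27 alternatives. The interaction of -0.29 ± 0.12 did not pass (adjusted p = 0.386).

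Klf4 (ENSMUSG00000003032), the close relative of Klf2, did not pass in any comparison. It had 8.25 CPM at the lowest, 10 at the median and 12.6 at the highest in hypoxic knockouts, against 8.5, 8.78, 8.8 and 16.8 CPM in hypoxic controls. In normoxia it had 10.6, 7.1, 12.5 and 10.6 CPM in knockouts, against 6.52, 14.2, 8.93 and 10.1 CPM in controls. The groups overlapped at both oxygen levels, with log2 fold changes of -0.05 ± 0.21 in hypoxia and 0.04 ± 0.24 in normoxia (adjusted p = 0.882 and 0.938). The high hypoxic control, replicate 6, also had the highest immediate early gene sum of the hypoxic controls, 1330 CPM against 463 to 628 CPM in control replicates 3 to 5. Without that library the hypoxic difference was 0.25 and did not pass (adjusted p = 0.412).

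Of the proteases, Adamts1 (ENSMUSG00000022893), an early response protease that cleaves versican and aggrecan, had 48.9, 31.7, 60 and 64.5 CPM in normoxic knockouts, against 14.4, 26.1, 22.3 and 25.9 CPM in normoxic controls. All 4 knockouts lay above all 4 controls. Adamts1 rose 2.31-fold, a log2 fold change of 1.21 ± 0.24 (adjusted p = 0.00497), and the call was made in all 27 alternatives. In hypoxia it had 19.5 CPM at the lowest, 36.2 at the median and 40.6 at the highest in knockouts, against 21.3, 26.2, 22.2 and 31.1 CPM in controls. These ranges overlapped through knockouts 1 to 3, at 26.7, 19.5 and 30 CPM. Knockouts 4 to 7, at 36.2, 40.2, 40.6 and 38 CPM, lay above all 4 controls. The difference of 0.39 ± 0.22 did not pass (adjusted p = 0.212), and it was also not called without knockout hypoxia libraries 1 to 3. With the replicate number as a block over the 4 shared numbers it was 0.54 and did pass (adjusted p = 0.0143). The hypoxic difference was smaller than the normoxic one by 0.82 ± 0.32 on the log2 scale, an interaction that did not pass (adjusted p = 0.362).

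Adamts4 (ENSMUSG00000006403), an aggrecanase that also cleaves brevican and versican, did not pass at either oxygen level, with nearly equal differences. It had 2.21 CPM at the lowest, 6.66 at the median and 8.96 at the highest in hypoxic knockouts, against 3.31, 2.33, 3.58 and 3.96 CPM in hypoxic controls. All hypoxic knockouts but replicate 4 lay above the 4 controls, and the difference was 0.81 ± 0.28 (adjusted p = 0.0516). It passed in 6 of 27 alternatives and not in the other 21. It was called by DESeq2 (0.8), with the stricter filter (0.84), without knockout hypoxia replicate 4 (0.95) or 5 (0.89) and without knockout normoxia replicate 1 or 2 (0.81). With the replicate block it was 0.5 and did not pass (adjusted p = 0.144), and without knockout hypoxia libraries 1 to 3 it was 0.6 and did not pass (adjusted p = 0.246). In normoxia Adamts4 had 8.18, 4.09, 6.1 and 5 CPM in knockouts, against 3.4, 2.77, 3.74 and 3.34 CPM in controls. Here no knockout overlapped a control, yet the difference of 0.82 ± 0.31 did not pass (adjusted p = 0.094). It passed in 4 of 27 alternatives, namely DESeq2 (0.83), the 2 groups alone (0.83), the replicate block (0.8) and without knockout hypoxia replicate 4 (0.82), which enters through the shared estimate of spread. Without knockout normoxia replicate 1 it was 0.61 (adjusted p = 0.278). The 5 oligodendrocyte markers summed to 186 CPM in knockout hypoxia replicate 4 and to 783 CPM in replicate 2, the libraries with the lowest and the highest Adamts4 in that group, and the part of oligodendrocyte RNA in the Adamts4 values was not tested.

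Adamts5 (ENSMUSG00000022894), the other main aggrecanase, and Vcan (ENSMUSG00000021614), the matrix proteoglycan these proteases cleave, did not pass in either knockout comparison. Adamts5 had 2.26, 3.24, 4.2 and 4.43 CPM in normoxic knockouts, against 4.69, 5.18, 4.66 and 4.49 CPM in normoxic controls. Each normoxic knockout was below each normoxic control, and the difference was -0.43 ± 0.21 (adjusted p = 0.19), whereas in hypoxia it was 0.16 ± 0.19 (adjusted p = 0.589). The normoxic difference was -0.26 without knockout normoxia replicate 1, the library with the lowest Adamts5 (adjusted p = 0.464). The sign of Adamts5 in normoxia is the opposite of that of Adamts1 and Adamts4. Vcan had 3.57, 2.06, 2.5 and 1.91 CPM in normoxic knockouts, against 1.44, 1.89, 2 and 1.91 CPM in normoxic controls. Knockouts 1, 2 and 3 exceeded all controls and knockout 4 did not, and the differences were 0.47 ± 0.19 in normoxia (adjusted p = 0.1) and -0.07 ± 0.16 in hypoxia (adjusted p = 0.796). Without knockout normoxia replicate 1, the highest in Vcan, the normoxic difference was 0.25 (adjusted p = 0.384). The annotation places the long noncoding gene Gm46558 over Adamts5, and Gm16318 and Gm4117 over Vcan, and whether counting used strand is not known.

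Rhob (ENSMUSG00000054364), a small GTPase of endosomes and actin, was the only one of the 10 genes called lower in a knockout comparison. It had 634 CPM at the lowest, 716 at the median and 740 at the highest in hypoxic knockouts, against 1090, 1160, 786 and 779 CPM in hypoxic controls 3 to 6. All knockouts lay below all controls, while the controls themselves spread widely, with replicates 3 and 4 far above 5 and 6. Rhob fell to 0.73 of the control level, a log2 fold change of -0.45 ± 0.11 (adjusted p = 0.00753). With the replicate block the value was the same and did not pass (-0.45, adjusted p = 0.0628). In the same comparison 4 of 7 astrocyte markers were called lower and 0 higher (median log2 fold change -0.52), and 2 of 7 lower without knockout hypoxia libraries 1 to 3. The part of astrocyte RNA in the Rhob difference was not tested. In normoxia the levels were 748, 842, 690 and 863 CPM in knockouts, against 1010, 777, 950 and 872 CPM in controls, groups that overlapped through control 2. That difference was -0.2 ± 0.12 (adjusted p = 0.303).

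Nos3 (ENSMUSG00000028978) rose in knockouts at both oxygen levels from a low base. It had 1.9 CPM at the lowest, 2.61 at the median and 3.29 at the highest in hypoxic knockouts, against 0.995, 1.19, 1.88 and 1.35 CPM in hypoxic controls. In normoxia it had 5.34, 2.59, 3.8 and 2.24 CPM in knockouts, against 1.35, 1.5, 1.67 and 2.17 CPM in controls. Both pairs of groups were separate, by a narrow margin in each case, and the knockouts of normoxia ranged more widely than those of hypoxia. The log2 fold changes were 0.94 ± 0.24 in hypoxia (1.91-fold, adjusted p = 0.0113) and 1.06 ± 0.26 in normoxia (2.09-fold, adjusted p = 0.0132). Without knockout hypoxia libraries 1 to 3 the hypoxic difference was 0.85 and did not pass (adjusted p = 0.066), and without knockout normoxia replicate 1 the normoxic one was 0.78 and did not pass (adjusted p = 0.056).

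Endothelial markers moved with Nos3 in normoxia. Their sum was 112, 29.8, 90.7 and 47.6 CPM in normoxic knockouts 1 to 4, against 12.2, 23.8, 18.8 and 28.5 CPM in normoxic controls, and 7 of the 9 markers were called higher and 0 lower. Libraries 1 and 3, the highest in the endothelial sum, were also the highest in Nos3, Klf2, Klf6 and Adamts4. Library 2 was the lowest of the 4 in that sum, Klf2, Klf6, Klf4 and Adamts1. Adamts1 was highest in library 4 (64.5 CPM), and Nos3 was lowest there (2.24 CPM). Neuronal, oligodendrocyte, erythroid, fibroblast and mural sums were likewise highest in libraries 1 and 3 and lowest in 2. For neuronal markers they were 1880, 900, 1510 and 1230 CPM in libraries 1 to 4. The astrocyte sum was highest in library 2, at 49200 CPM. In hypoxia the endothelial sums overlapped and 2 of the 9 markers were called higher, with 0 without knockout hypoxia libraries 1 to 3. The part of endothelial RNA in the Nos3, Klf and protease values was not tested. Nos3 overlaps Atg9b and Gm15587 in the annotation, and Atg9b did not pass (0.51 ± 0.31 in hypoxia, 0.49 ± 0.36 in normoxia).

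Thbs1 (ENSMUSG00000040152), a secreted matrix protein that inhibits vessel growth and that astrocytes release to promote synapses, did not pass in either knockout comparison. It had 5.56, 3.53, 5.34 and 3.33 CPM in normoxic knockouts, against 1.67, 3.41, 2.45 and 3.38 CPM in normoxic controls. Knockout 4 fell within the range of the controls, and the difference was 0.71 ± 0.25 (adjusted p = 0.0744). It passed in 2 of 27 alternatives, by DESeq2 (0.72) and without knockout hypoxia libraries 1 to 3 (0.73). In hypoxia it had 1.79 CPM at the lowest, 2.56 at the median and 3.72 at the highest in knockouts, against 1.78, 2.16, 2.71 and 1.67 CPM in controls, with overlap and a difference of 0.4 ± 0.23 (adjusted p = 0.231). Its sign was thus positive in both comparisons, the same as that of Klf2.

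**Figure D2:**
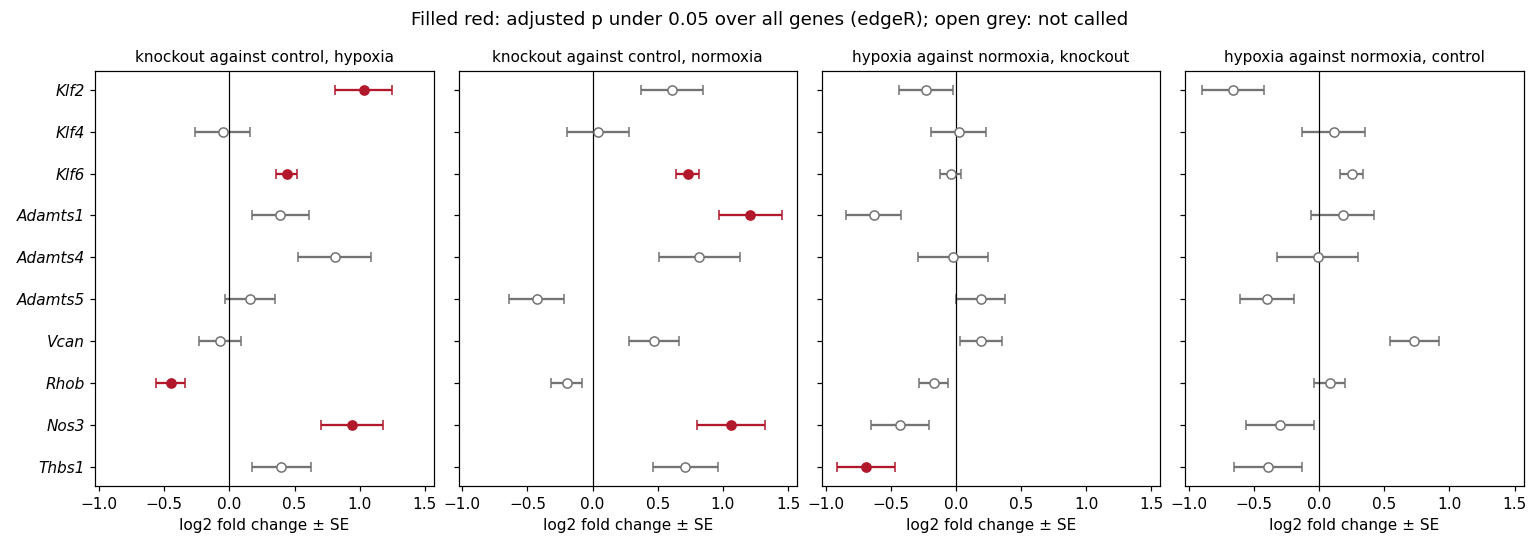
Log2 fold change ± SE of each of the 10 genes in the 4 comparisons of 2 groups, from the edgeR fit of 19 libraries, with filled red points for an adjusted p under 0.05 over all 19854 genes. Klf6 and Nos3 are called in both knockout comparisons, and Thbs1 alone between hypoxia and normoxia in knockouts.

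The effect of 7 days at 12% oxygen was read within each genotype. In knockouts Thbs1 was the 1 gene of the 10 called lower, where 7.77% of all tested genes were, and 0 were called higher, where 4.76% of all genes were (0 higher at an unadjusted p under 0.05, and 0 higher by DESeq2). For Thbs1 the hypoxic maximum of 3.72 CPM and the normoxic minimum of 3.33 CPM overlapped, through replicates 2 and 6 of the hypoxic knockouts, and the log2 fold change was -0.69 ± 0.22 (0.618-fold, adjusted p = 0.0456). This call was made in 12 of 27 alternatives. It was lost without any 1 of knockout hypoxia replicate 1 (-0.61), 3 (-0.67), 4 (-0.68), 5 (-0.7) or 7 (-0.66), control hypoxia replicate 3 or 4 (-0.69), knockout normoxia replicate 1 (-0.57) or 3 (-0.59) and control normoxia replicate 3 (-0.69), and without knockout hypoxia libraries 1 to 3 it was -0.63. Adamts1 had a similar difference of -0.63 ± 0.21 and did not pass (adjusted p = 0.0546). It passed in 6 of 27 alternatives, among them without knockout normoxia replicate 2 (-0.81), knockout hypoxia replicate 5 (-0.68) or control normoxia replicate 1 (-0.63). The other 8 genes lay between -0.43 (Nos3) and 0.19 (Adamts5 and Vcan).

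In controls, hypoxia against normoxia called 0 of the 10 genes, where 0.00504% of all tested genes were called higher and 0.0806% lower by edgeR. At an unadjusted p under 0.05 there were 2 higher, Klf6 at 0.25 ± 0.09 and Vcan at 0.73 ± 0.19, and 1 lower, Klf2 at -0.66 ± 0.24 (adjusted p = 0.4, 0.191 and 0.389). Of all 19854 tested genes, 1788 were under that unadjusted threshold in either direction. DESeq2 called Vcan alone, at 0.74 (adjusted p = 0.0266). Vcan had 3.25, 2.28, 3.2 and 3.27 CPM in hypoxic controls, against 1.44, 1.89, 2 and 1.91 CPM in normoxic controls. Every hypoxic control exceeded every normoxic one. This is the only comparison in which versican RNA separated the groups fully.

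The interaction, the knockout difference in hypoxia minus that in normoxia, called 0 of the 10 genes in edgeR, where 0.0101% of all genes were called higher and 0% lower, and 0 by DESeq2. At an unadjusted p under 0.05 were Klf6, Adamts1 and Vcan, all with a smaller or lower difference in hypoxia (-0.29 ± 0.12, -0.82 ± 0.32 and -0.54 ± 0.25). Of all 19854 tested genes, 2292 were under that unadjusted threshold in either direction. Adamts5 had an interaction of 0.59 ± 0.28 (adjusted p = 0.437). For none of the 10 was the knockout difference shown to depend on oxygen.

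Other genes of the pathway and of each family were read from 8 lists. Of their 96 tested genes, 27 were called in hypoxic knockouts (28.1%), where 19.7% of all 19854 tested genes were, and 17 in normoxic knockouts (17.7%), where 12.2% of all were. Of these, 8 and 4 were called in all 27 alternatives. Without knockout hypoxia libraries 1 to 3, 12 of the 96 were called in hypoxia, 5 higher and 7 lower. The hypoxic count was 17 without knockout hypoxia replicate 3 or 6, and 12 and 14 without control hypoxia replicates 4 and 5. The normoxic count was 10, 26 and 6 without knockout normoxia replicates 1, 2 and 3, and 9, 10, 8 and 10 without control normoxia replicates 1 to 4. Counts of single lists below are from the fit of all 19 libraries. Beside them, 10.4% of all tested genes were called higher and 9.37% lower in hypoxic knockouts, and 6.9% and 5.27% in normoxic knockouts. The genes described next are those whose call was made in all 27, among the up to 3 with the lowest adjusted p per list. Map3k3 and Thbd were added after their values were seen. Of 20 genes of the CCM complex and MEKK3 pathway, 1 was higher and 2 lower in hypoxia, and 1 higher and 1 lower in normoxia (median log2 fold change 0.14 and 0.06), with Pdcd10 lower in both and Map3k3 the second lower gene in hypoxia. Map3k3, which encodes MEKK3, averaged 12.9 ± 1.01 CPM in hypoxic knockouts and 15.6 ± 1.21 CPM in hypoxic controls (SD, n = 7 and 4), a difference of -0.27 ± 0.08 with adjusted p = 0.0308. That call was lost without knockout hypoxia replicate 3 (-0.25) or 6 (-0.26), without control hypoxia replicate 3 (-0.22), 5 (-0.29) or 6 (-0.27), without knockout hypoxia libraries 1 to 3 (-0.28, adjusted p = 0.0865), and with the replicate block (-0.34, adjusted p = 0.0824).

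The other Klf genes had calls in both directions, as all tested genes did at the shares given above. Of 13 tested, 2 were higher and 4 lower in hypoxic knockouts, and 1 higher and 1 lower in normoxic knockouts (median 0.17 and -0.07). Klf9 and Klf15 are glucocorticoid-responsive factors. Klf9 averaged 465 ± 35.8 CPM in hypoxic knockouts and 697 ± 89.3 CPM in hypoxic controls and fell by 0.59 ± 0.1 on the log2 scale (adjusted p = 0.00104). Klf15 averaged 180 ± 21.8 and 289 ± 47.3 CPM in the same groups and fell by 0.69 ± 0.13 (adjusted p = 0.00215). For both, each hypoxic knockout was below each hypoxic control, the reverse of Klf2 and Klf6. In normoxia Klf15 was also called lower (-0.51 ± 0.15, adjusted p = 0.0355), in 19 of 27 alternatives, and Klf9 was not called (-0.3 ± 0.12, adjusted p = 0.104). The fall of 4 of 7 astrocyte markers in hypoxic knockouts, given beside Rhob, belongs to the same comparison, and its part in the lower Klf9 and Klf15, and in the lower Adamts9, Adamts20 and Timp3 described next, was not tested. On the RPKM scale Klf9 stood at 100 in hypoxic knockouts, against 9.07 for Klf2.

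The other ADAMTS genes also had calls in both directions, again beside the shares of all tested genes given above. Of 15 tested, 2 were higher and 3 lower in hypoxic knockouts, and 3 higher and 1 lower in normoxic knockouts (median 0.49 and 0.46). Adamts20 averaged 2.54 ± 0.447 CPM in hypoxic knockouts and 6.96 ± 2.22 CPM in hypoxic controls and fell by 1.45 ± 0.18 on the log2 scale (adjusted p = 5.25e-05). Adamts9, a versican-cleaving protease of the same clade, averaged 5.62 ± 1.63 and 11.6 ± 1.18 CPM and fell by 1.04 ± 0.18 (adjusted p = 0.000904). Adamts15, another versican-cleaving protease, averaged 4.74 ± 0.901 CPM in normoxic knockouts and 2.21 ± 0.559 CPM in normoxic controls and rose by 1.1 ± 0.22 (adjusted p = 0.00462). The groups were separate for all 3. Adamts20 was also called lower in normoxia, at 3.05 ± 0.467 CPM in knockouts and 5.24 ± 0.619 CPM in controls (-0.78 ± 0.21, adjusted p = 0.0245), again with separate groups. That call was lost without knockout normoxia replicate 1 or 3 and without control normoxia replicate 3 or 4, with values of -0.85 to -0.68 over the 27 alternatives. Adamts9 in normoxia was -0.56 ± 0.21 and was not called (adjusted p = 0.0861). Proteases of this family were thus higher (Adamts1 and Adamts15 in normoxia), lower (Adamts20 at both oxygen levels and Adamts9 in hypoxia) or not called (Adamts4 and Adamts5).

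Among 5 metalloproteinase inhibitors 0 were higher and 3 lower in hypoxic knockouts, and 1 higher and 0 lower in normoxic ones (median -0.42 and 0.13). Timp3, an inhibitor of ADAMTS proteases held in the matrix, averaged 109 ± 33.9 CPM in hypoxic knockouts and 185 ± 22.6 CPM in hypoxic controls and fell by 0.77 ± 0.19 on the log2 scale (adjusted p = 0.0111). Its normoxic difference was -0.21 ± 0.22 (adjusted p = 0.58). Of 10 tested genes of the hyaluronan and lectican matrix, to which versican belongs, 1 was higher and 2 lower in hypoxic knockouts and 2 higher and 0 lower in normoxic ones (median 0.23 and 0.57).

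Of 6 thrombospondin family genes and receptors, 1 was higher and 2 lower in hypoxic knockouts, and 1 higher and 0 lower in normoxic knockouts (median 0.03 and 0.25). Thbs3 rose by 0.47 ± 0.12 in hypoxia (adjusted p = 0.0104). Of 13 tested endothelial genes that Klf2 and Klf4 or nitric oxide signalling are known for, 0 were higher and 1 lower in hypoxic knockouts, and 2 higher and 0 lower in normoxic knockouts (median 0.04 and 0.4). Thbd, a textbook Klf2 target, averaged 39.6 ± 10.3 CPM in hypoxic knockouts and 46.3 ± 11.4 CPM in hypoxic controls, with overlap (-0.23 ± 0.25, adjusted p = 0.558). In normoxia it averaged 79.8 ± 30.6 CPM in knockouts and 43 ± 14.6 CPM in controls, with every knockout above every control, and was not called (0.89 ± 0.29, adjusted p = 0.052). Of 14 immediate early genes, 3 were higher and 0 lower in hypoxic knockouts, and 2 higher and 1 lower in normoxic knockouts (median 0.61 and 0.15). Atf3, a stress-induced factor, averaged 2.52 ± 0.37 CPM in hypoxic knockouts and 0.852 ± 0.213 CPM in hypoxic controls (1.56 ± 0.31, adjusted p = 0.00227), and rose by 2.26 ± 0.35 in normoxia (adjusted p = 0.000802). Jun rose by 0.89 ± 0.14 in normoxic knockouts (adjusted p = 0.000914).

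**Figure D3:**
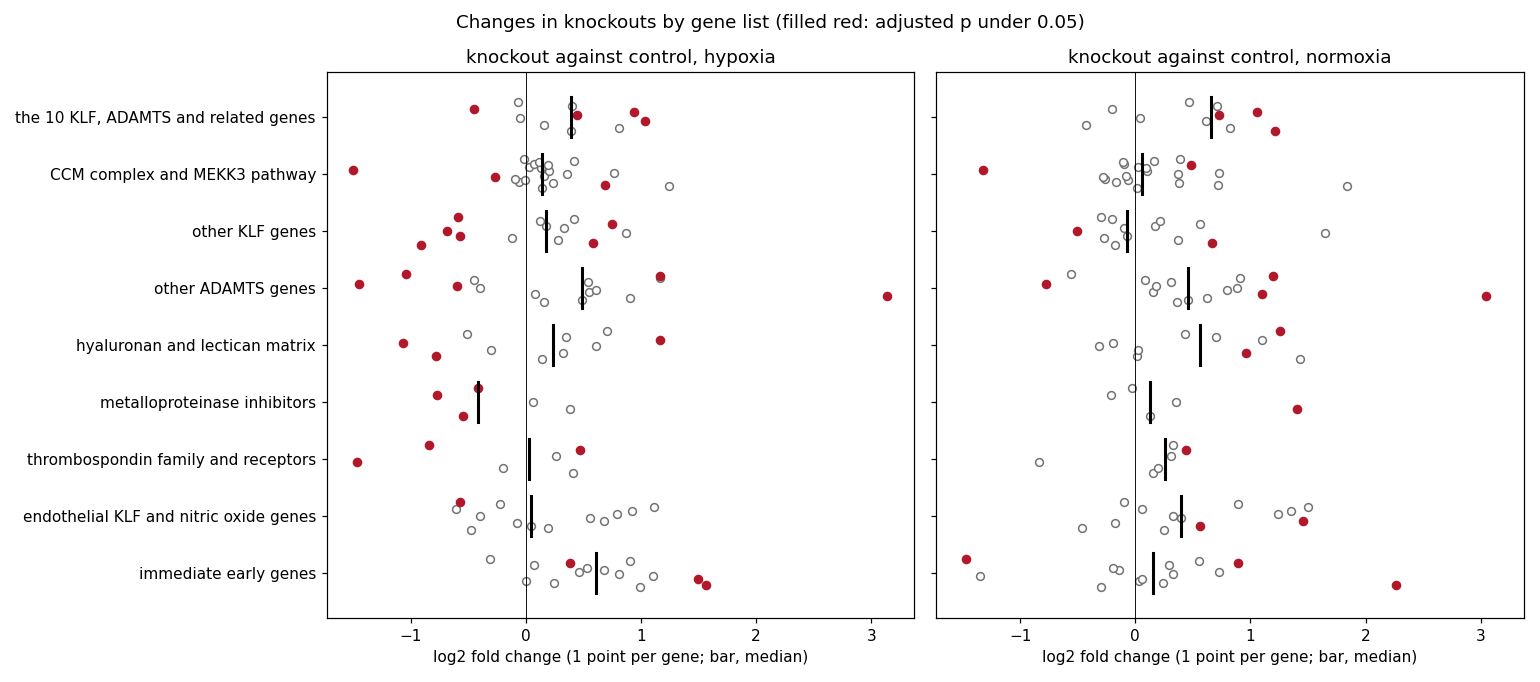
Log2 fold changes in knockouts against controls for the 10 genes and the 8 lists, in hypoxia (left) and normoxia (right), with 1 point per tested gene, filled red where called, and a bar at the median. In hypoxia calls fall on both sides of 0 in most lists. In the ADAMTS list Adamts20 is called lower at both oxygen levels, Adamts9 lower in hypoxia and Adamts15 higher in normoxia.

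Between hypoxia and normoxia, 19 of the 96 list genes were called in knockouts (19.8%), where 12.5% of all tested genes were, with 10 without knockout hypoxia libraries 1 to 3. In controls 0 were called, where 0.0856% of all genes were, and 0 were called by DESeq2. At an unadjusted p under 0.05 in edgeR there were 6 of the 96, beside 1788 of all 19854 tested genes. The interaction called 0 of the 96 in edgeR, where 0.0101% of all genes were called, and 0 in DESeq2. For the interaction 18 of the 96 had an unadjusted p under 0.05 in edgeR, beside 2292 of all 19854. Of the 19, 0 were called in all 27 alternatives and 6 in all but the replicate block, under which 1 gene in all was called. Those 6 moved in both directions. Higher in hypoxic knockouts were the immediate early genes Egr2 (2.3 ± 0.48, 4.94-fold) and Nr4a1 (1.59 ± 0.37, 3.02-fold, adjusted p = 0.00747 and 0.0126). Lower were the metalloproteinase inhibitors Reck (-0.81 ± 0.16) and Timp4 (-0.52 ± 0.11), Tlr4 (-0.61 ± 0.13), a receptor upstream of MEKK3 in mouse endothelium, and Cd47 (-0.45 ± 0.1), a thrombospondin receptor (adjusted p = 0.00597, 0.00675, 0.00818 and 0.0114).

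The 10 genes did not all share a pattern over the 19 libraries. Likeness was measured as the root mean square difference of log2 CPM after centring each gene and dividing by its SD, so that 0 is identical. The closest pairs among the 10 were Adamts4 and Nos3 at 0.66, Nos3 and Thbs1 at 0.7 and Klf2 and Nos3 at 0.73. The farthest were Rhob with Klf2 and with Nos3, both at 1.8. Klf2, Klf6, Adamts1, Adamts4, Nos3 and Thbs1 lay at 0.66 to 1.11 from each other. Some pairs with Klf4 or Vcan also fell in that range, such as Klf6 and Vcan at 0.99. All these genes share the same libraries and group differences, so the values are descriptions.

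Among 12318 genes whose mean log2 CPM reached 1, the median distance from the 10 genes was 1.33 to 1.45. The nearest to Klf6 were Pdlim7 (0.32), Enox1 and Grik4 (both 0.34). Klf2 had Togaram2 (0.46), Samd4 and Ggta1 (both 0.49) nearest, and Klf4 had Pcdh18 (0.61), Fos (0.7) and Brd2 (0.76). Nearest to Adamts1 were Hacd4 (0.47), Ptgfrn (0.49) and Lpcat1 (0.51). Adamts4 was closest to Mag (0.38), a myelin gene, then Sez6l2 (0.39) and Slitrk1 (0.4). Mag averaged 39.3 ± 15.6 CPM in hypoxic knockouts, 19.7 ± 2.6 in hypoxic controls, 31.8 ± 11 in normoxic knockouts and 18.9 ± 2.1 CPM in normoxic controls. Thbs1 was closest to the matrix genes Fbn1, Lamc1 (both 0.45) and Lamc3 (0.47), and Nos3 to Moxd1 (0.42), Cars (0.43) and Jag2 (0.45). Rhob had Smim3 (0.43), Chka (0.44) and Mphosph6 (0.45) nearest, while Adamts5 with Tnfaip8 (0.57), Mob3c (0.69) and Rfxap (0.7), and Vcan with Rbm6 (0.69), Kat2a and Nmt1 (both 0.7), had looser neighbours.

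Marker and response RNA differed between the same groups. The mural marker sum was 84.8 to 104 CPM in normoxic knockouts, against 47.9 to 76.9 CPM in normoxic controls, and control normoxia library 1, at 47.9, was also the lowest of that group in the endothelial (12.2 CPM) and fibroblast sums (79.9 CPM) and in Klf2, Klf4, Adamts1, Vcan, Nos3 and Thbs1. The oligodendrocyte sum ranged over 186 to 783 CPM in hypoxic knockouts, against 250 to 314 CPM in hypoxic controls, and the neuronal sum over 884 to 3390 CPM, against 703 to 1090 CPM. The immediate early gene sum was 851 to 1360 CPM in hypoxic knockouts, and in hypoxic controls it was 463 to 628 CPM but for replicate 6 at 1330 CPM. In hypoxia 2 of 5 oligodendrocyte, 5 of 6 neuronal, 4 of 7 mural and 5 of 7 microglial markers were called higher and 0 of each lower. In normoxia 0 of 5, 2 of 6, 6 of 7 and 4 of 7 were. Without knockout hypoxia libraries 1 to 3, the hypoxic counts were 0 of 5 oligodendrocyte, 0 of 6 neuronal, 1 of 7 mural and 3 of 7 microglial markers. The 3 erythroid markers (Hbb-bs and Hba-a1 for haemoglobin, and Alas2 for haem synthesis) were called higher in knockouts at both oxygen levels and in all 27 alternatives, with a median log2 fold change of 3.67 in hypoxia and 3.63 in normoxia. Their sum was 18.1 to 106 CPM in hypoxic knockouts, against 3.13 to 4.52 CPM in hypoxic controls, and 6.99 to 33.7 CPM in normoxic knockouts, against 0.543 to 3.23 CPM in normoxic controls. Of the 7 astrocyte markers, 4 were called lower in hypoxic knockouts and 0 in normoxic ones. Mitochondrially encoded RNA was called higher for 10 of 10 genes in hypoxic knockouts, and for 0 of 10 without libraries 1 to 3. In normoxia 0 of 10 were called, and 10 of 10 higher in the fit without those libraries. Of 5 fibroblast markers 1 was called lower in hypoxia and 2 higher in normoxia. Of 4 oligodendrocyte precursor markers 1 was higher in hypoxia and 0 were called in normoxia. Neither the fibroblast nor the precursor call in hypoxia was made without knockout hypoxia libraries 1 to 3. The part of marker and response RNA in the differences of the 10 genes was not tested.

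**Figure D4:**
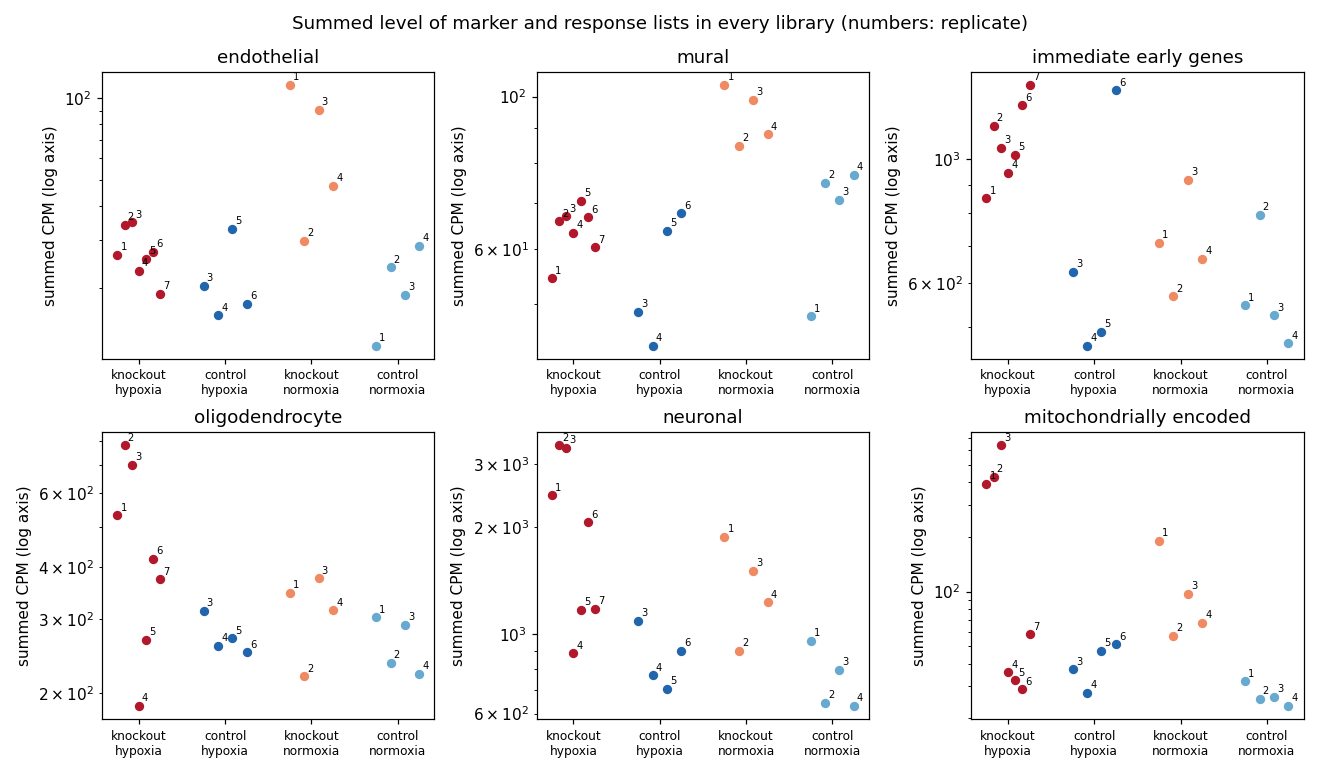
Summed CPM of 6 lists in every library on log axes, with the replicate number at each point. Knockout hypoxia libraries 1 to 3 are high in mitochondrially encoded, neuronal and oligodendrocyte RNA, normoxic knockouts 1 and 3 in endothelial RNA, and control hypoxia library 6 in immediate early genes.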

How the data were processed

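Polyadenylated RNA of mouse brain was read in 19 of 21 labelled libraries. The counts per gene were deposited by the authors as whole numbers, made with HISAT2 and edgeR on build GRCm39, per the submitters' processing notes. Versions, the counter and its use of strand are not given in the sources used here. RPKM values, which the authors deposited too, match counts over column total and gene length to a relative difference of 7.4e-15 and serve only to compare levels between genes. Of counts from 2 to 21, 65.9% were even, as when both mates of a pair are counted, so precision is below what totals imply. Gene names came from the name table, which matched 52083 of 55416 IDs. Overlapping genes were read from RefSeq GRCm38.p6, a different build.

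Counts were filtered by filterByExpr, scaled by TMM (factors 0.941 to 1.12) and tested in edgeR 4.0.16 (quasi-likelihood, robust) under R 4.3.3, in 1 fit of 4 group terms over all 19 libraries, with Benjamini-Hochberg adjustment over 19854 genes and a threshold of 0.05. There were 5 contrasts: the genotypes within hypoxia and within normoxia, the oxygen levels within each genotype, and the interaction. Groups came from the labels. CPM is the count scaled by TMM-adjusted library size. Group values are mean ± SD over libraries, and fold changes log2 ± SE. The script was tested on simulated counts. The 10 genes and all lists were chosen with earlier results of these data known. The rule for named genes takes the 10, Pdcd10, the up to 3 called genes of lowest adjusted p per list and contrast, and the 3 genes of nearest pattern per member, and the text gives those list genes whose calls held in all alternatives. 1 gene list and 1 gene that overlaps another in the annotation are not reported here.

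Alternatives were RLE scaling, no filter beyond 1 count in any library, a filter of 1 CPM in at least 4 libraries, DESeq2 1.42.0, the 2 groups alone, a replicate block, leaving out knockout hypoxia libraries 1 to 3, a covariate for Ddx3y under 10 CPM, and each library left out. Deviations of same-numbered libraries from their group means correlated at 0.12 to 0.27 for the 4 numbers shared by hypoxic knockouts and controls. All were over 0.1, so those numbers were taken to pair libraries, on the data alone, though the main fit has no block. Correlations between differently numbered libraries were not computed, so these values have no reference. Hypoxic and normoxic knockouts reached 0.13 and 0.16 for replicates 3 and 4 and were not taken as paired. Among the remaining contrasts the lowest correlation was -0.25 to 0.02. Knockout hypoxia 4 and 5 were the most alike, with a median chi-square per gene of 1.71, against 0.455 for repeat draws of independent counts. That reference is too low where both mates of a pair are counted. Knockout hypoxia 4 and 5 each counted as a library.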

Additional observations from a re-analysis of the deposited data

Results flagged for a closer look

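Of 40 sets of levels (10 genes in 4 groups), 2 held a library far from the others of its group, where chance gives about 5% of sets. Klf4 had 16.8 CPM in control hypoxia library 6, against 8.5 to 8.8 CPM in the other 3 hypoxic controls. The same library was high in immediate early genes. Vcan had 2.28 CPM in control hypoxia library 4, below 3.2 to 3.27 CPM in the others. Without that library the Vcan difference between hypoxic and normoxic controls was 0.84 on the log2 scale (adjusted p = 0.2, edgeR), and that between hypoxic knockouts and controls -0.18 (adjusted p = 0.502).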

How the results depend on the processing

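None of the values of the 10 genes that passed turned its sign in any alternative. Klf2 in hypoxia, Klf6 in both knockout comparisons and Adamts1 in normoxia passed in all 27 alternatives. Nos3 in hypoxia passed in 26 and in normoxia in 25, Rhob in hypoxia in 26 and Thbs1 between hypoxic and normoxic knockouts in 12. With the replicate block Nos3 in normoxia was 1.02 and did not pass (adjusted p = 0.087), though the numbers were not taken to pair normoxic libraries. DESeq2 called 5 of the 10 in normoxia, with Adamts4 (0.83) and Thbs1 (0.72) added. Over all genes it called 3292 there, against 2415 in the main fit. Between hypoxic and normoxic knockouts 2 were called with the stricter filter and by DESeq2, where 2766 and 3288 of all genes were, against 2489 in the main fit. None were called with no filter (1791 of all genes), with the 2 groups alone (945), with the replicate block (1) and without knockout hypoxia libraries 1 to 3 (1428). DESeq2 called 1 between the controls, where it called 133 of all genes. Leaving out 1 library gave 0 to 2 of the 10 between hypoxic and normoxic knockouts.

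Counts over all genes moved more. In hypoxic knockouts 3917 genes were called, 1697 without knockout libraries 1 to 3, and 2177 to 4735 without any 1 library. The 2415 called in normoxia fell to 1563 with the replicate block and to 1422 with the Y-linked covariate, with 1143 to 3152 over single libraries. Between hypoxic and normoxic knockouts 2489 were called, 945 in the 2 groups alone, 1 with the replicate block, 1428 without knockout hypoxia libraries 1 to 3, and 1488 to 2719 over single libraries. In controls 17 were called by hypoxia, 133 by DESeq2, 34 in the 2 groups alone, 318 with the block, 26 without those libraries and 11 with the covariate, and 3 to 39 over single libraries. The block between the controls rests on the 2 replicate numbers that these groups share. The interaction had 2, with 107 by DESeq2, 9 with the block and up to 23 over single libraries. The causes were not tested. Nos3, Thbs1, Adamts5 and Vcan had as few as 61, 95, 125 and 92 counts in a library, which limits what they can show.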
